A study of Mus musculus with 13 samples.

Results

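The transcripts described here are 5 of the 94 genes on a single-cell PCR panel, chosen by name: R18s, Actb (Actinb in the deposited table), Gapdh, Rpl35 and Psmb7. R18s is the RNA of the small ribosomal subunit and Actb is beta-actin of the cytoskeleton. Gapdh is an enzyme of glycolysis, Rpl35 a protein of the large ribosomal subunit and Psmb7 a catalytic subunit of the proteasome core. The rule uses their names alone, and all 5 are given in all 13 populations.

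Housekeeping transcripts serve basic functions that nearly every cell needs, and are often measured as a reference for the amount of RNA in a sample. T cells are small and quiescent before activation, and enlarge, make ribosomes and turn to glycolysis when they begin to divide, so reference transcripts can themselves change in an immune response. The proteasome degrades tagged proteins and supplies peptides for presentation.

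The cells were CD8+ T cells of C57BL/6J mice transgenic for OT-1, a T cell receptor specific for an ovalbumin peptide, and were isolated from spleen. Cells at days 5, 7 and 45 came from congenic wild-type recipients of 5000 OT-1 cells that were given 5000 colony-forming units of ovalbumin-expressing Listeria monocytogenes intravenously 1 day later. Day 3 recipients received 20000 OT-1 cells, and first-division cells, at day 2, came from recipients of 2000000 cells that carried a division-tracking dye. Recipients of both kinds were given the same dose of 5000 colony-forming units. Naive cells were unactivated OT-1 cells. The other populations included proximal and distal daughters (day 2), for which the sample labels give neither cells transferred nor dose. There were also Tmp (memory precursor) and Tsle (short-lived effector) cells at days 5 and 7. The rest were bulk cells of days 3, 5 and 7, not split into subsets, and central (Tcm) and effector (Tem) memory cells at day 45. Each population is 1 sample of 48 (distal daughter) to 154 (day 5) cells, 1449 in all. The number of mice, the gates of the subsets and the array of each cell are not stated in the sources used here. Differences between populations therefore have no replicate check, and no test was made.

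A value is a log2 amount in PCR cycles, read as 40 minus the cycle of detection, so that 1 cycle is a doubling, and 0 is no detection. Each assay has its own efficiency, so the values of different assays are not compared as amounts of RNA. A gene's level per cell is its value minus 12, a limit equal to a detection cycle of 28, and 0 below that. Cd8a was above 0 in 48.0% of cells, Ptprc in 94.3%, Thy1 in 38.4% and Cd44 in 3.24%. The markers of other T cells were rare, with Cd4 and Foxp3 in 2 cells each and Gata3 in 53. Beside the 5 transcripts, the median number of other assays above 0 per cell ran from 7 in Tem to 15 in first-division, proximal and unsorted day 5 cells.

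R18s, Actb and Gapdh were above 0 in all 1449 cells (100%, exact 95% interval 99.7 to 100%; intervals here cover counting error only). The 6 cells with at most 2 other assays above 0, from 5 populations, had them too, including 4 cells with no other assay above 0. In those cells R18s lay between 21.6 and 24.2, Actb between 13.8 and 15.7 and Gapdh between 13.1 and 16.4. Rpl35 was above 0 in 196 cells (13.5%, 11.8 to 15.4%) and Psmb7 in 372 (25.7%, 23.44 to 28.0045%). Thus 3 of the transcripts were above 0 in every cell and 2 in a minority of cells. All 5 assays have a suffix other than m1, which TaqMan assays carry where the probe spans an exon junction and genomic DNA is not detected by design. The 74 m1 assays of the panel were above 0 in a median of 6.73% of cells and the 16 others, without these 5, in 11.3%. What part genomic DNA has in the values was not tested. Psmb1, another proteasome subunit on the panel that was looked up after the assay names were seen, was above 0 in 1 cell.

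R18s had the highest median value of the panel, 27.4, with a range of 21.4 to 32.0 (SD over cells 1.44, n = 1449). By population its median was 27.98 in naive cells, 28.7 in first-division cells, 26.1 in proximal and 25.2 in distal daughters. It was 26.7 at day 3 and 27.7 at day 5, and 27.1 in day 5 Tmp and 27.6 in day 5 Tsle cells. It was 28.8 at day 7, with 28.4 for Tmp and 26.4 for Tsle cells of that day. Memory cells had 27.3 (Tcm) and 25.7 (Tem). The order thus ran over 3.56 cycles, from day 7 to distal daughters.

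Actb had a median of 20.1 and a range of 6.81 to 24.5 (SD 1.89, n = 1449). Its median was highest in day 5 Tsle cells, at 22.2, followed by Tcm (21.0), day 5 (20.9) and day 5 Tmp (20.6). First-division cells (20.3), day 7 Tsle (20.2), day 7 (20.1), proximal daughters (20.0) and day 7 Tmp (19.8) lay in the middle. Naive (19.3), day 3 (19.2), distal (18.2) and Tem (17.1) cells were lowest, so that the order ran over 5.10 cycles. Actb was at or below the limit in 3 cells, all of day 7, with values of 11.03, 8.23 and 6.81. In those cells, in the same order, Gapdh was 12.5, 6.89 and 4.45 and R18s 27.3, 21.4 and 22.7. The first quartile over day 7 cells was 12.1 for Gapdh and 28.2 for R18s.

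Gapdh was the most variable of the 3 from cell to cell, with a median of 15.4 and a range of 1.04 to 22.1 (SD 3.27, n = 1449). Its medians lay closer together, from 14.02 in distal daughters to 17.3 in first-division cells, a span of 3.23 cycles. In between were day 5 Tsle (16.2), day 5 Tmp (15.8), day 5 (15.7), proximal and naive (both 15.6), day 7 Tsle (15.4), Tcm (15.3), day 7 Tmp (15.1), day 3 (14.7), day 7 and Tem (both 14.6) cells. Of the variance in Gapdh, 8.11% lay between populations and 87.0% among cells of one population and one stretch of its columns (defined next). For R18s these shares were 43.7% and 39.1%, and for Actb 40.3% and 49.7%.

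The values of a population were not homogeneous along its columns in the deposited table. Each population was divided into a first and a second stretch at the place where the assays other than these 5 changed most, a division added after the data were seen. In naive, Tem, day 7 Tmp, day 7 Tsle and Tcm cells this place took 58.8%, 57.1%, 53.7%, 47.1% and 41.7% of the rank variance of R18s. The place that R18s itself would choose lay 0 to 4 columns away in those 5 populations. In the other 8 the share was 0.00423% (proximal daughters) to 28.8% (day 3). What the stretches are (arrays, sorts or mice) is not stated in the sources used here, and their part in the differences between populations was not tested.

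**Figure D1:**
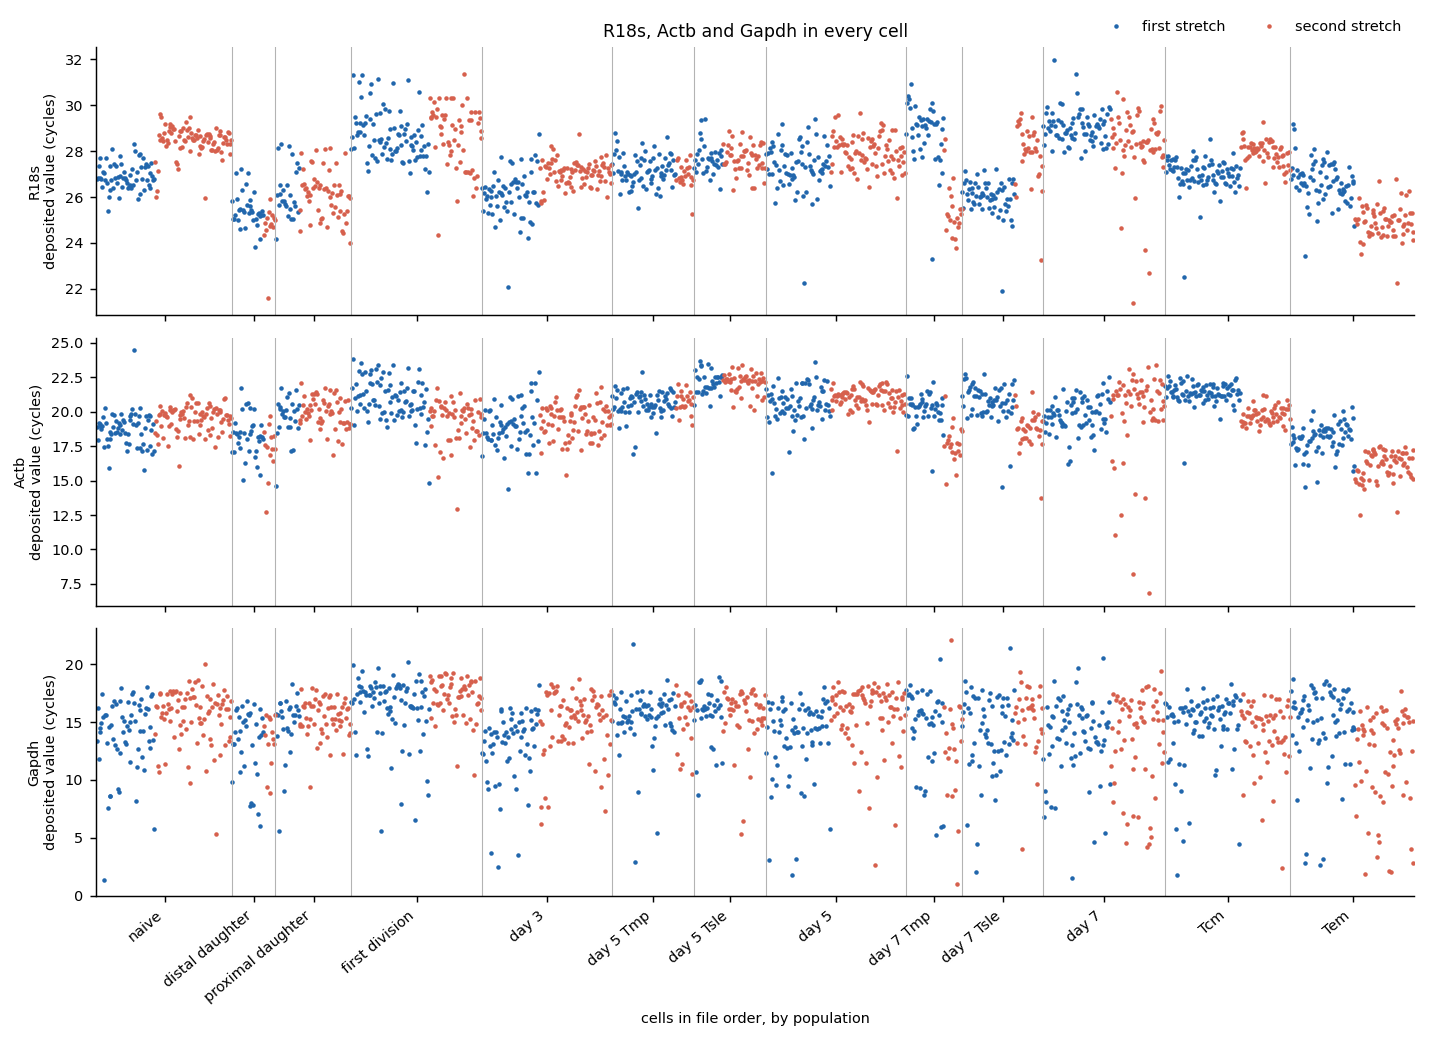
Deposited values of R18s, Actb and Gapdh (vertical axes, PCR cycles) in each of the 1449 cells in file order (horizontal axis), with populations separated by grey lines, first stretches in blue and second stretches in red. R18s steps up by 1.72 cycles in naive cells and down by 3.88 in day 7 Tmp cells, while low Gapdh values occur in every population.

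Between its stretches, the median of R18s went from 29.1 to 25.2 in day 7 Tmp cells, from 26.1 to 28.1 in day 7 Tsle cells, from 26.8 to 28.5 in naive cells and from 26.6 to 24.9 in Tem. The Actb median went from 20.4 to 17.6 in day 7 Tmp cells, from 20.9 to 18.8 in day 7 Tsle cells, from 18.2 to 16.3 in Tem and from 21.4 to 19.7 in Tcm. Medians at least 1 cycle apart between stretches occurred in 4 of 13 populations for R18s, in 6 for Actb and in 6 for Gapdh. R18s and Actb moved in opposite directions in 5 of 13 populations, among them day 7 Tsle and Tcm. In the other 8 they moved the same way, in Tem by -1.69 (R18s) and -1.94 cycles (Actb) and in day 7 Tmp by -3.88 and -2.77.

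Set against that spread, most neighbours in the order of populations did not differ beyond it. Neighbours have the closest medians by the ordering itself, so their overlap says little of pairs further apart. The ranges spanned by the medians of the stretches overlapped in 12 of 12 neighbouring pairs for R18s, 10 of 12 for Actb and 11 of 12 for Gapdh. The exceptions were Actb in day 5 Tsle (22.2 in both stretches) above Tcm, Actb in day 3 above distal daughters, and Gapdh in first-division cells (17.0 and 17.3) above day 5 Tsle (16.1 and 16.2). Over all 78 pairs of populations, the ranges did not overlap in 42 for R18s, 45 for Actb and 35 for Gapdh. By mean level in place of the median, which can be given for every gene, the ranges did not overlap in 42 pairs for R18s, 47 for Actb, 38 for Gapdh, 59 for Psmb7 and 8 for Rpl35. Over all 94 genes 41.1% of pairs did not overlap, and over the 4 other genes above 0 in at least 50% of cells 66.3%. The shares of R18s, Actb and Gapdh lay between these, that of Psmb7 (75.6%) above both and that of Rpl35 (10.3%) below both. The mean levels of Psmb7 were low, from 0.05 cycles in day 7 Tmp to 1.29 in first-division cells.

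Rpl35 and Psmb7 are described by the share of cells above 0. The Psmb7 share was highest in proximal daughters, in 35 of 83 cells (42.2%, 31.4 to 53.5%), in first-division cells, in 57 of 144 (39.6%, 31.5 to 48.1%), and at day 3, in 49 of 143 (34.3%, 26.5 to 42.7%). It was lowest in Tem, in 8 of 136 (5.88%, 2.57 to 11.3%), in day 7 Tmp, in 4 of 62 (6.45%, 1.79 to 15.7%), and in day 7 Tsle, in 9 of 89 (10.1%, 4.73 to 18.3%). The other 7 populations lay between 20.8% (distal) and 29.9% (day 7). In cells with the transcript the median value of Psmb7 was 13.2, and 112 of its 372 values were at or below the limit of 12. These included 36 of the 49 values at day 3 (median 10.1), but 7 of 35 in proximal daughters and 1 of 57 in first-division cells. The high share at day 3 thus rested mostly on values at or below the limit. Its mean level was 0.18 cycles, against 0.27 in naive cells.

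Rpl35 was above 0 in 38 of 154 day 5 cells (24.7%, 18.1 to 32.3%), its highest share, and in 0 of 83 proximal daughters, which allows a share of up to 3.61%. Between these lay day 5 Tsle (21.5%), first-division (19.4%), day 3 (18.9%), day 5 Tmp (16.7%), Tem (14.7%), distal (12.5%), naive (10.1%), Tcm (9.42%), day 7 (8.21%), day 7 Tmp (4.84%) and day 7 Tsle (3.37%) cells. Its values were close to the limit, with a median of 12.3 in cells with the transcript and 87 of 196 values at or below 12. These included 17 of the 38 values at day 5, 12 of 15 in day 5 Tmp and all 11 at day 7. At day 3 they were 6 of 27 and in naive cells 1 of 15, so the order of shares depends on counting such values. Intervals of neighbouring populations, the closest in the order, overlapped in 12 of 12 pairs for both transcripts. Over all 78 pairs they did not overlap in 18 for Rpl35 and 26 for Psmb7. This count was not made for the other genes, so whether it is usual for the panel cannot be told. The count by mean level, given above beside that of all genes, was 8 for Rpl35 and 59 for Psmb7.

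**Figure D2:**
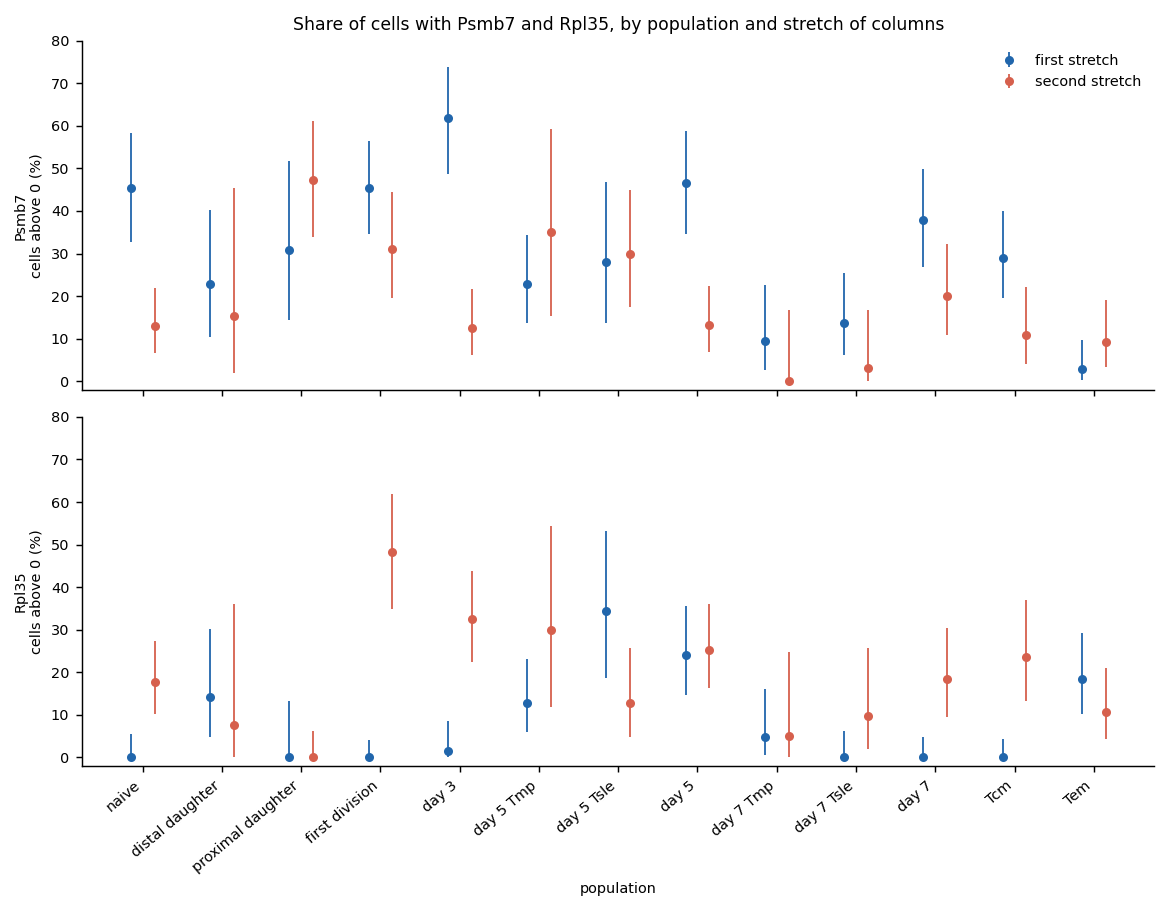
Share of cells above 0 (vertical axes, percent) for Psmb7 and Rpl35 in each population, with first stretches of columns in blue, second stretches in red and exact 95% intervals as bars. The share of Psmb7 falls from 61.9% to 12.5% between the stretches of day 3, where that of Rpl35 goes from 1.59% to 32.5%.

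Both shares changed along the columns, and in opposite directions. Psmb7 was above 0 in 247 of 775 cells of the first stretches (31.9%) and in 125 of 674 of the second (18.5%), and its share was higher in the first stretch in 9 of 13 populations. Rpl35 was above 0 in 58 of 775 (7.48%) and 138 of 674 (20.5%), and was higher in the second stretch in 9 of 13. In naive cells Psmb7 was in 29 of 64 and then 11 of 85 cells, and Rpl35 in 0 of 64 and then 15 of 85. In first-division cells Rpl35 was in 0 of 86 and then 28 of 58 cells. Rpl35 was likewise at 0 throughout the first stretch of day 7 (74 cells), day 7 Tsle (58) and Tcm (83), and in 11 of 60, 3 of 31 and 13 of 55 cells of the second. The Psmb7 shares of the stretches of day 3, 61.9% and 12.5%, lay further apart than the highest and lowest of the 13 populations. The mean level of Psmb7 did not fall with its share there. In cells with the transcript its median was 9.49 in the first stretch of day 3, below the limit, and 14.5 in the second. Its mean level was 0.21 cycles higher in the second stretch of day 3, 0.06 lower in that of naive cells and 0.69 lower in that of first-division cells.

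Cells with both transcripts numbered 40, and the product of the shares within stretches gives 40.4. Neither was found in 921 cells (63.6%). Cells with and without a transcript were set side by side in the stretches that held at least 3 cells of each kind. Cells with Psmb7 had more other assays above 0 in 18 of 22 stretches, by a median over stretches of 1.25 assays, and a higher mean R18s in 16 of 22, by a median of 0.28 cycles, Actb in 15 of 22 (0.19) and Gapdh in 12 of 22 (0.17). Cells with Rpl35 had more other assays in 12 of 15 stretches, by a median of 0.93, and a higher Gapdh in 13 of 15, by a median of 0.55 cycles, Actb in 12 of 15 (0.12) and R18s in 8 of 15 (0.07).

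Across the cells of a population, R18s and Actb rose and fell together in most populations. Spearman's rho had a median of 0.59 over the 13 populations and was highest in proximal daughters (0.85, n = 83), day 7 Tmp (0.76, n = 62) and distal daughters (0.67, n = 48). It was below 0 in Tcm (-0.39, n = 138) and day 7 Tsle (-0.26, n = 89). All correlations across cells are descriptions, and the cells share a population, an amount of input and possibly an array.

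**Figure D3:**
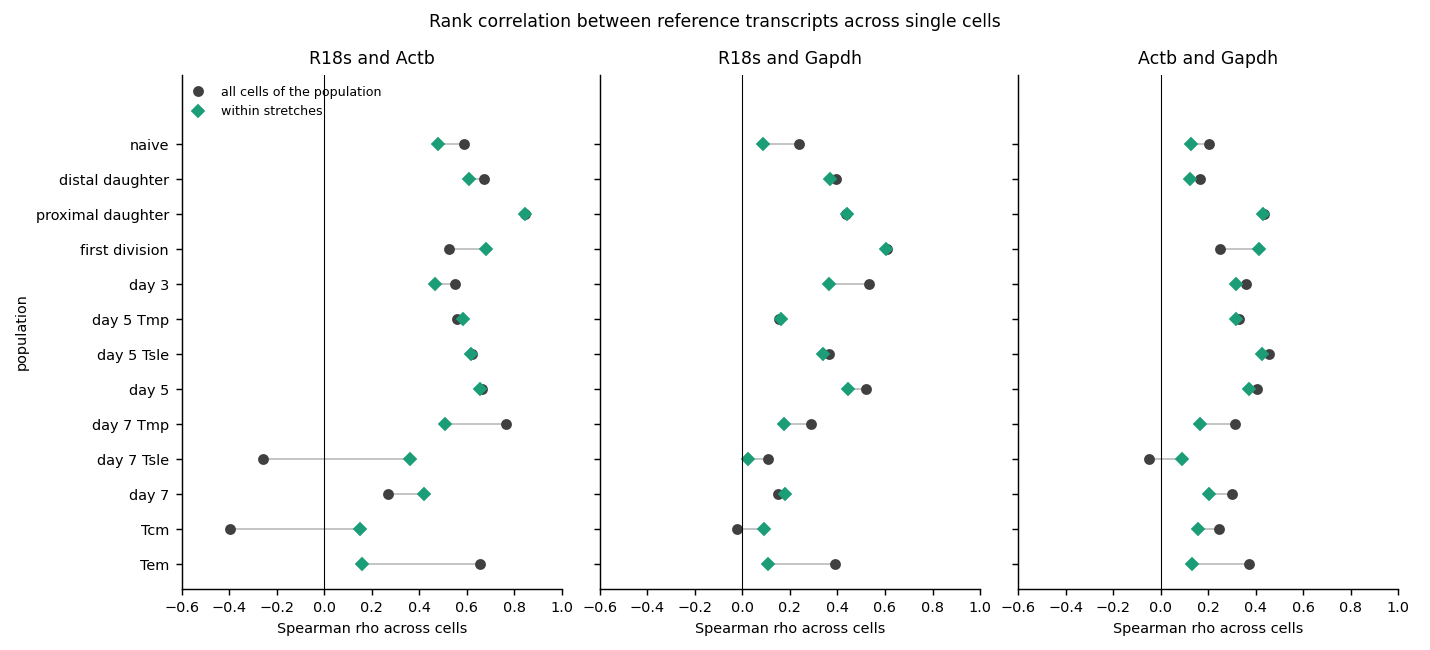
Spearman's rho across cells (horizontal axes) for the pairs R18s and Actb, R18s and Gapdh, and Actb and Gapdh in each population (vertical axis), over all cells (grey circles) and as the mean of the stretches weighted by cells (green diamonds). For R18s and Actb, Tcm and day 7 Tsle are below 0 over all cells and above 0 within stretches.

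Within stretches, the rho of R18s and Actb was above 0 in 26 of 26. In Tcm it was 0.20 and 0.07, in day 7 Tsle 0.52 and 0.06, and in Tem, where all cells gave 0.65, 0.13 and 0.20. The negative values of Tcm and day 7 Tsle and much of the positive value of Tem thus occurred between stretches and not among cells of one stretch. Proximal daughters (0.86 and 0.84) and day 5 Tsle (0.64 and 0.60) had the same relation in both stretches and over all cells. The median over populations was 0.51 within stretches.

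**Figure D4:**
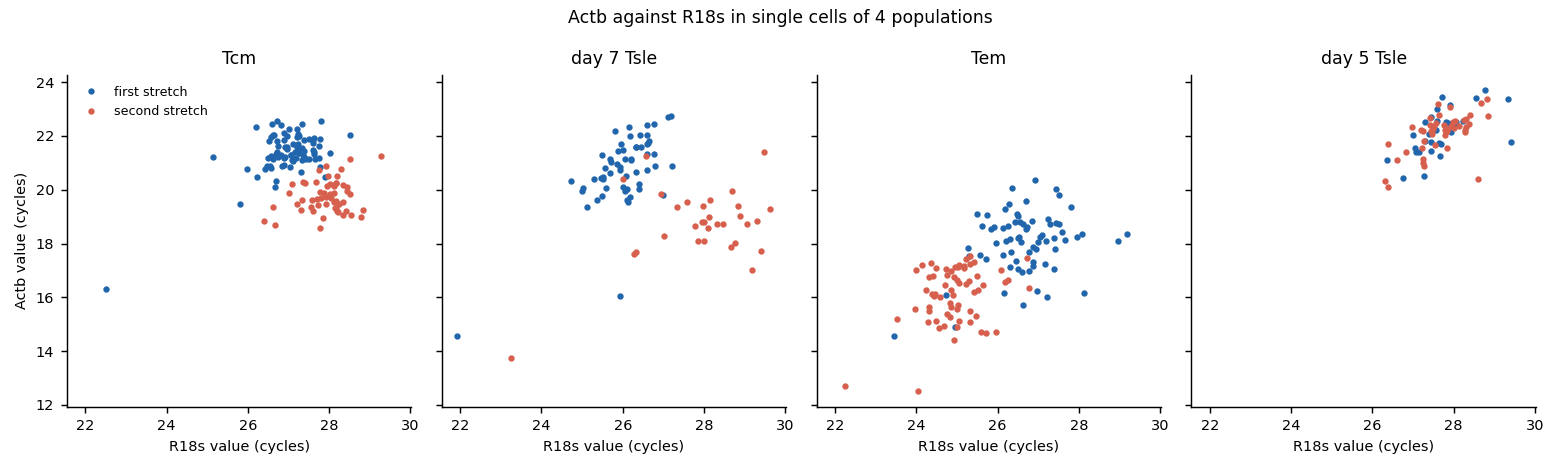
Actb (vertical axis, PCR cycles) against R18s (horizontal axes, PCR cycles) in single cells of Tcm, day 7 Tsle, Tem and day 5 Tsle, with first stretches in blue and second stretches in red. In Tcm the second stretch has a higher R18s median (28.01 against 27.06) and a lower Actb median (19.7 against 21.4), and in day 5 Tsle the stretches lie on each other.

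Gapdh followed the other 2 less closely. Its rho with R18s had a median of 0.36 over populations, from -0.02 in Tcm to 0.61 in first-division cells, and 0.18 within stretches. With Actb the median was 0.31, from -0.05 in day 7 Tsle to 0.46 in day 5 Tsle, and 0.20 within stretches. Pairs with Rpl35 or Psmb7 had median values between -0.06 and 0.13, which in values this sparse is no finding. Psmb7 was less sparse in first-division cells and proximal daughters, where its rho with R18s was 0.38 and 0.33 (0.38 and 0.32 within stretches) and with Actb 0.38 and 0.36 (0.32 and 0.35). At day 3, where 34.3% of cells had Psmb7, its rho was -0.11 with R18s and 0.02 with Actb (0.15 and 0.10 within stretches).

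The difference between transcripts within a cell shows how far one would cancel the variation of another. The SD of R18s minus Actb had a median of 1.14 cycles over the 13 populations, below the SD of Actb alone in 11 of 13 and below that of R18s alone in 5 of 13. It was smallest in day 5 Tsle (0.63) and largest in day 7 Tsle (2.21), where the stretches had median differences of 5.04 and 9.19 cycles. The median of R18s minus Actb itself ran from 5.52 cycles in day 5 Tsle to 8.70 at day 7, so the 2 references did not keep one ratio across populations. For R18s minus Gapdh the median SD was 2.79 cycles and for Actb minus Gapdh 3.09, and neither was below the SD of the first-named transcript in any population. They were below the SD of Gapdh in 9 and 7 of 13.

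Low Gapdh values came from a tail of cells rather than from whole populations. Gapdh was at or below the limit of 12 in 230 cells (15.9%, 14.03 to 17.86%), and below 5 in 33. The share was 4.82% in proximal daughters (4 of 83) and 5.56% in first-division cells (8 of 144), against 27.1% in distal daughters (13 of 48), 26.5% in Tem (36 of 136), 24.6% at day 7 (33 of 134) and 24.2% in day 7 Tmp (15 of 62). In those cells the median of Actb was lower than in the rest of the population in 12 of 13 populations, with a median difference of -0.62 cycles, and that of R18s in 12 of 13, with -0.36. Within the 23 stretches that held at least 3 cells of each kind, Actb was lower in 20, with a median difference of -0.49, and R18s in 16, with -0.14. Actb stayed above 12 in all but 3 cells.

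The number of other assays above 0 (of 89 genes, the 5 transcripts left out) tracked the reference transcripts in some populations more than in others. For R18s the rho with this number was 0.69 in first-division cells, 0.68 in day 7 Tmp and 0.64 in proximal daughters, but -0.07 at day 3 and -0.13 in day 7 Tsle. Within stretches the values at day 3 were 0.18 and 0.22, and in day 7 Tsle 0.39 and 0.15, while day 7 Tmp fell to 0.24 and 0.60. The median over populations was 0.17 for R18s (0.32 within stretches), 0.32 for Actb (0.31), 0.20 for Gapdh (0.19), 0.20 for Psmb7 (0.13) and 0.03 for Rpl35 (0.08). In naive cells none of R18s, Actb and Gapdh followed the number of assays, with values of -0.05, -0.02 and -0.11 within stretches.

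The mean levels were compared in 10 pairs of populations, which ask how the transcripts differ between naive cells and each stage of the response, between the memory subsets, between the daughters and between effector subsets. A difference was counted at 1 cycle or more. Of 50 differences (5 transcripts in 10 comparisons), 14 (28%) reached that size, 8 higher and 6 lower in the first-named population. Actb reached it in 7 of 10 comparisons, R18s in 4, Gapdh in 2, Psmb7 in 1 and Rpl35 in none. Over all genes of the panel, 79 of 940 differences (8.40%) did so. A gene found in few cells can hardly reach 1 cycle in the mean, and among the 4 other genes above 0 in at least 50% of cells 18 of 40 differences (45%) did. Among other genes above 0 in 13 to 26% of cells, as Rpl35 and Psmb7 are, 13 of 140 (9.29%) did. The 28% pools transcripts found in every cell with sparse ones, so the 8.40% is no matched background for it. The median size was 0.35 cycles over the 50 differences and 0.08 over all genes.

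Compared with naive cells, first-division cells had a higher Gapdh (mean level 4.73 against 3.22, difference 1.51 cycles), Actb (8.30 against 7.16, 1.14) and Psmb7 (1.29 against 0.27, 1.02). Of all genes, 9.57% were at least 1 cycle higher in this comparison. Over the 4 pairings of their stretches, Gapdh lay between 0.75 and 2.55 and Psmb7 between 0.58 and 1.33, but Actb between -0.12 and 2.19, so its direction depended on the stretches compared. R18s was 0.91 higher (0.25 to 1.79). Centred on R18s, which takes this difference off each transcript, the differences were 0.59 for Gapdh, 0.23 for Actb and 0.11 for Psmb7. All were below 1 cycle. Cells without Psmb7 then carry R18s alone, so its 0.11 is no measure of Psmb7 relative to R18s. At a limit of Ct 24 Gapdh was 0.78 and Psmb7 0.09 higher, Psmb7 was 0.50 higher at Ct 26 and 0 by median, and Actb was 0.98 higher by median.

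R18s was 1.14 cycles lower at day 3 than in naive cells (14.6 against 15.8), where 4.26% of genes were at least 1 cycle lower, with pairings from -2.31 to 0.14. Actb was 1.68 higher at day 5 (8.83 against 7.16), where 10.6% of genes were that much higher, and all pairings exceeded 1 cycle (1.16 to 2.26). At day 7 no member reached 1 cycle, with 3.19% of genes higher and 2.13% lower by that size, and R18s was 0.90 higher (-0.22 to 2.15).

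Among memory cells, Tcm had 1.58 cycles more Actb than naive cells (8.73 against 7.16; 8.51% of genes were that much higher), with pairings from 0.29 to 2.63. Tem had 1.94 cycles less R18s (13.8 against 15.8) and 2.05 less Actb (5.10 against 7.16) than naive cells, where 6.38% of genes were at least 1 cycle lower, and every pairing was below 0. Centred on R18s, the Actb difference was -0.11, and between first stretches R18s differed by -0.25 and Actb by -0.71. Tem against Tcm gave the largest of the 50 differences, with Actb 3.63 cycles lower (5.10 against 8.73; pairings -5.30 to -1.71). R18s was 1.53 lower (13.8 against 15.4; -2.99 to -0.33), and 12.8% of all genes were at least 1 cycle lower in Tem. The number of other assays was also low in Tem, with a median of 7 against 13 in Tcm and 9 in naive cells, and its part in these differences was not tested. Gapdh differed less, by -0.34 cycles between Tem and Tcm (-1.47 to 0.83).

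**Figure D5:**
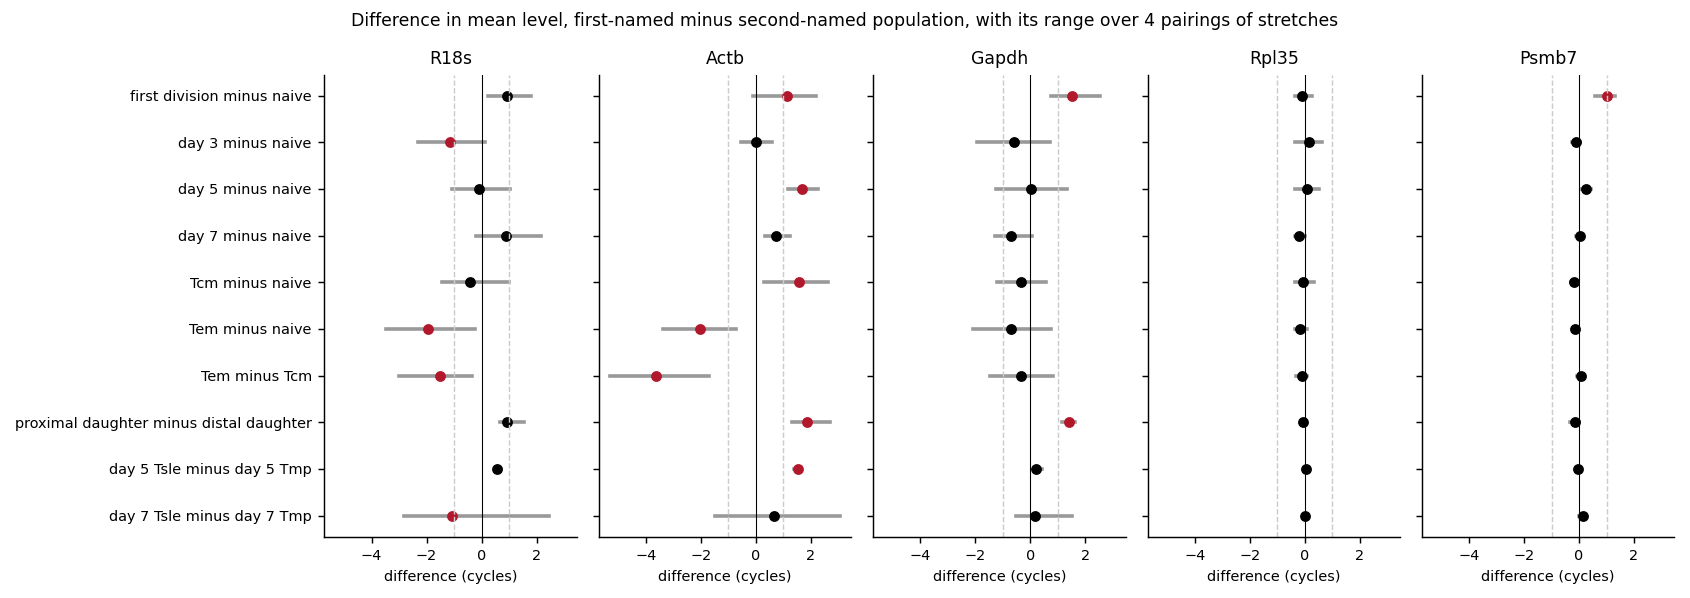
Difference in mean level (horizontal axes, PCR cycles) for each transcript in the 10 comparisons (vertical axis, first-named minus second-named population), with red points at 1 cycle or more, black points below that, and grey bars spanning the 4 pairings of stretches. For Actb, proximal minus distal daughter and day 5 Tsle minus Tmp stay above 1 cycle over the whole bar, while the day 7 bars of R18s and Actb cross 0.

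Proximal daughters had 1.85 cycles more Actb (7.83 against 5.99; pairings 1.33 to 2.70) and 1.41 more Gapdh (3.40 against 1.99; 1.15 to 1.63) than distal daughters, where 3.19% of genes were at least 1 cycle higher. R18s was 0.91 higher (0.68 to 1.53). Centred on R18s, Actb was 0.94 and Gapdh 0.50 higher, and Gapdh was 0.91 higher at a limit of Ct 26 and 0.28 at Ct 24. Other assays above 0 numbered 15 (median) in proximal and 8 in distal daughters, and their part in these differences was not tested. Psmb7 differed by -0.16 cycles (-0.34 to -0.01), and by 2.32 cycles with no detection limit, so its direction rested on the limit. Its share of cells was 42.2% in proximal and 20.8% in distal daughters, and its median value in cells with the transcript 13.3 and 15.7.

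Day 5 Tsle cells had 1.52 cycles more Actb than day 5 Tmp cells (10.1 against 8.61; 5.32% of genes were that much higher), with pairings from 1.38 to 1.60, the narrowest of the 14, and centred on R18s it was 0.97. Other assays above 0 had the same median, 13, in both. At day 7 Actb differed by 0.64 (-1.47 to 3.05), and R18s was 1.06 lower in Tsle (14.7 against 15.7; 2.13% of genes were that much lower), with pairings from -2.81 to 2.46. Of the 14 differences, all pairings of stretches were past 1 cycle in 5, namely Actb in day 5 against naive, Tem against Tcm, proximal against distal and day 5 Tsle against Tmp, and Gapdh in proximal against distal. Of these 5, Actb in day 5 against naive (1.77) and in Tem against Tcm (-2.10) were also past 1 cycle centred on R18s. In 3 of the 14 the pairings had both signs.

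Of the 3 growth genes set beside these transcripts, Myc, a transcription factor of growth, was above 0 in 19.3% of cells, from 1.12% in day 7 Tsle to 61.4% in proximal daughters, and was at least 1 cycle higher in 2 of 10 comparisons. Mtor, a growth-regulating kinase (8.63% of cells), and Hk2, a hexokinase of glycolysis (1.38%), reached 1 cycle in none.

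The genes most like each transcript were taken among 33 genes above 0 in at least 10% of cells. In mean level over 13 populations, Psmb7 was most like Eomes, a T-box transcription factor (Pearson's r 0.83), Tcf12 (0.78) and Myc (0.74). Actb was most like Il2rb, a chain of the IL-2 receptor, and Foxo1 (both 0.76) and Thy1 (0.70). R18s was most like Bnip31 as named in the table (0.70), Stat4 (0.68) and Foxo1 (0.63), Gapdh like Mapk14 (0.66), Foxo1 (0.57) and Gzmb (0.49), and Rpl35 like Rela (0.64), Cflar (0.61) and Gzmb (0.60). These values of r were picked as the highest among the 33 genes, over 13 populations, and were not tested. Mean levels of Rpl35 ran only from 0 in proximal daughters and at day 7 to 0.34 cycles at day 3. Across cells the likeness was weaker. The highest median rho was that of R18s with Ptprc (0.38, and 0.28 within stretches), followed by Actb with Lgals1, a galectin (0.35, and 0.36 within stretches), and Actb with Ptprc (0.27 and 0.22). For Gapdh it was Thy1 (0.20), and for Rpl35 it was Il2rb (0.07), which in sparse counts is no finding.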

How the data were processed

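Single cells were sorted into a reverse transcription and preamplification mix, amplified for 18 cycles with pooled TaqMan assays, diluted 5-fold and run on Fluidigm dynamic arrays, per the labels' protocols. The deposited table, called non-normalized by the authors, holds log2 amounts for 95 assay rows (94 genes, Il2 in 2 rows) and 1449 cells. The labels call the values Ct, but they grow with the amount of RNA. They run from 1.01 to 35.0, with 83.4% at 0, and the offset of 40 is inferred. How Ct was converted is not given in the sources used here. Accessions gave RefSeq names (GRCm38.p6) for 93 rows. R18s was not matched. The 5 members, the lists and the comparisons were chosen with earlier results of these data known.

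Populations were taken from the column names, and no 2 columns were identical. With 1 sample per population there was no test. Shares have exact Clopper-Pearson 95% intervals (scipy 1.17.1, numpy 2.4.6, Python 3.11.15), and 0 cells has an upper limit of 3 cells of n. Stretches had at least 12 columns and were placed by the assays other than the members. The step search, the counting rule and the intervals were tested on simulated data. Named genes were the 5 members, the 3 growth genes, the marker lists and, per member, the 3 most alike genes over populations and the 3 over cells. Some of these are not reported here. Alternatives were other limits, medians, detected cells, at least 10 or 20 assays per cell, centring on R18s, Pearson's r, earlier or later columns, and, added later, the stretches.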

Additional observations from a re-analysis of the deposited data

Results flagged for a closer look

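R18s differed between Tsle and Tmp cells in opposite directions at the 2 times: it was 0.56 cycles higher in Tsle at day 5 and lower at day 7, with a difference of -1.06 cycles. For Psmb7, the difference was -0.021 cycles at day 5 and 0.13 at day 7. With 1 sample per population, the difference between the times was not tested, and the day 7 value of R18s has both signs over pairings of stretches.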

How the results depend on the processing

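The count of 14 differences of at least 1 cycle became 23 with no detection limit and 31 with at least 20 assays per cell. Centred on R18s it was 20 of 40, against 10 of the same 40 as reported, with 3 past 1 cycle in both. Cells without Rpl35 or Psmb7 then carry R18s alone. For Actb and Gapdh it was 9 of 20 both ways, but only 3 of these differences were past 1 cycle in both. The filter of at least 20 assays per cell left 1 naive, 1 Tem, 4 distal, 4 day 7 Tmp and 4 day 7 Tsle cells, so its values rest on few cells. Under it Actb reversed to -3.40 (first division against naive), -3.69 (day 5 against naive), -3.60 (Tcm against naive) and -0.17 (proximal against distal), and Psmb7 to -1.60 (first division against naive). Actb in first division against naive was -0.0076 in later columns and -0.12 in second stretches. R18s at day 3 against naive was 0.013 in later minus earlier columns, and R18s in day 7 Tsle against Tmp was 0.85 in later columns and 2.46 in second stretches. The cause was not tested. Of 192 values recomputed for the 14 differences, these 10 changed sign and 30 more fell below 1 cycle. Of 497 recomputed for smaller differences, 91 changed sign, 17 of them to 1 cycle or more.

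The share above the limit at Ct 28, 26 and 24 was 84.1%, 70.5% and 40.5% for Gapdh, 7.52%, 3.17% and 0% for Rpl35, and 17.9%, 8.90% and 1.86% for Psmb7. For Actb it was 99.3% at Ct 26 and 96.2% at 24. The share above 0 by stretch, first and second, was 7.48% and 20.5% for Rpl35 and 31.9% and 18.5% for Psmb7. Centred on R18s, the rho of Actb and Gapdh was 0.14, and that of Psmb7 with the number of assays was -0.013 in cells with the transcript. By median absolute deviation the spread was 1.96 for R18s minus Gapdh and 2.18 for Actb minus Gapdh. At a filter of 30% of cells, 14 genes were compared and 14 of 30 places held the same gene. No paired analysis was possible because each population is 1 sample. Precision is limited by 48 to 154 cells per population.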
